A study of Mus musculus with 5 samples.

Results

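Osteoclast effector genes are the genes whose products let a mature osteoclast attach to bone, acidify the space beneath it and digest the matrix. The set described here was chosen by name from the known biology of the cell, not by a rule on measured values. Earlier results of these data were known when it was chosen. The set holds 7 of the 21990 genes in the expression table: Ctsk, Acp5, Clcn7, Ostm1, Itgb3, Calcr and Ckb. The proton pump and the matrix metalloproteinases are not part of it. All 7 genes were found in the table, 6 of them had a value, and 4 reached 1 FPKM in at least 1 library.

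The libraries came from RAW264.7, a mouse monocyte/macrophage cell line that can be turned into osteoclast-like cells in culture. The control cells carried Renilla luciferase, and the CD137 cells carried Renilla luciferase and mouse Cd137, so both groups share the luciferase. CD137, the product of Tnfrsf9, belongs to the TNF receptor superfamily and is best known for co-stimulating T cells. Of 5 samples in the series (2 control, 3 CD137), the values used here are those of control replicate 2 and CD137 replicates 2 and 3. The labels do not give the promoter or vector behind either introduced gene, whether the cells are a pool or a single clone, or any treatment with osteoclast-inducing cytokines. The comparison asks what the introduced Cd137 does to expression in these cells, in a study of monocyte migration and osteoclast differentiation.

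An osteoclast forms from a monocyte or macrophage precursor under M-CSF and RANKL, through a programme in which NFATc1, acting with AP-1, PU.1 and MITF, switches on the effector genes. The mature cell seals a patch of bone with integrin-rich podosomes. It then pumps protons and chloride through its ruffled border, a membrane built from lysosomal vesicles, and releases cathepsin K and tartrate-resistant acid phosphatase (TRAP) into the acid space. Several of the proteins that do this work, such as the chloride transporter, are ordinary lysosomal proteins in other cells, whereas cathepsin K, the β3 integrin chain and the calcitonin receptor are used as markers of the mature osteoclast.

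The deposited level of a gene is its FPKM, the fragments counted per kilobase of its transcript after scaling for depth, rounded to 0.01. The depth behind these values was estimated at about 18200000 reads for the control and 17800000 and 17900000 for CD137 replicates 2 and 3. The sources used here do not say whether reads or fragments were counted, and the counts are called reads throughout. Tnfrsf9, which checks the labels, had an FPKM of 5.06 (control), 364 (CD137 replicate 2) and 370 (CD137 replicate 3). Sets of 3 values without labels are in the order control, CD137 replicate 2 and CD137 replicate 3. The macrophage identity of the line was seen in 9 of 10 macrophage markers at 1 FPKM or more, with a summed level of 3122 FPKM in the control and 1964 and 2012 FPKM in the CD137 libraries. Of these markers 4 rose and 4 fell (limma adjusted p under 0.05, as defined below), beside 24.4% and 18.2% of all expressed genes. Most of the difference in the sum was Lyz2, the macrophage lysozyme (1693, 646 and 669 FPKM), without which the sums were 1429, 1318 and 1343 FPKM. Epithelial markers stood apart in 1 library. Their sum was 6.28 FPKM in CD137 replicate 2, against 0.67 FPKM (control) and 1.17 FPKM (CD137 replicate 3), with Krt8 at 2.60 FPKM and Krt18 at 2.59 FPKM in that library. T cell (3.61 to 5.21 FPKM), dendritic cell (0.87 to 1.78 FPKM) and osteoblast or stromal (3.50 to 4.48 FPKM) marker sums were low in all 3 libraries. Of these markers, the T cell kinase Lck (3.16, 4.59 and 4.28 FPKM; limma adjusted p = 0.0256) and the dendritic cell factor Zbtb46 (0.64, 1.36 and 1.45 FPKM; adjusted p = 0.0252) rose, Zbtb46 from under the expression limit, and their part in the members' differences was not tested. Among the epithelial, T cell, dendritic and osteoblast or stromal markers, Cd3e, Cd3g, Bglap, Ibsp and Krt14 had no value, and Clec9a and Ccr7 were listed at 0 in the control.

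The 3 expressed effectors of acid and enzyme secretion, Acp5, Clcn7 and Ostm1, were higher in CD137 cells, and the energy enzyme Ckb was lower. Ctsk and Itgb3 were near silent in the control and higher in both CD137 libraries while remaining under 1 FPKM. Calcr had no value in any library. The words rose and fell are used here for an adjusted p under 0.05 in a limma fit of log2(FPKM + 1) over the 10720 expressed genes, those with 1 FPKM or more in some library. Of the 4 members in that fit, 3 rose, against 24.4% of all expressed genes, and 1 fell, against 18.2%. With either direction counted, all 4 members passed, and so did 42.6% of the expressed genes. The members that passed the expression limit are not the whole set, and the 2 that failed it have no call. The control is 1 library, so the spread in this test came from the CD137 libraries alone. In a fit of all 16003 genes with a value, none of the members passed; that fit called 0 genes (0.0%), although 5281 genes had an unadjusted p under 0.05 in it. The p-values rest on how far the CD137 libraries differed from each other, drawn for each gene towards a trend shared by all genes in the fit. The labels do not say whether separate cultures were used, so this spread may be technical. In such bulk RNA, more cells of a type and more RNA per cell cannot be told apart.

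Among the 6 members with a value, both CD137 libraries lay above the control for 5 and below it for 1. Of all 16003 genes with a value, 43.5% had both CD137 libraries above the control and 34.0% had both below; the first share was 49.0% among expressed genes and 32.4% among genes under 1 FPKM in every library, to which Ctsk and Itgb3 belong. The levels spanned more than the differences between groups did. In the control, Ckb stood highest at 140 FPKM, followed by Clcn7 at 17.5, Ostm1 at 16.0, Acp5 at 2.86, Ctsk at 0.07 and Itgb3 at 0.03 FPKM. The order was the same in both CD137 libraries. In the control, the neighbours Clcn7 and Ostm1 had overlapping 95% counting intervals (16.5 to 18.5 and 15.0 to 17.1 FPKM), and so did Ctsk and Itgb3 (0.0085 to 0.253 and 0.0062 to 0.0877 FPKM). All other neighbours in the control were separated by more than counting error. In both CD137 libraries the intervals of Clcn7 and Ostm1 still overlapped, and those of Ctsk and Itgb3 did not.

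**Figure D1:**
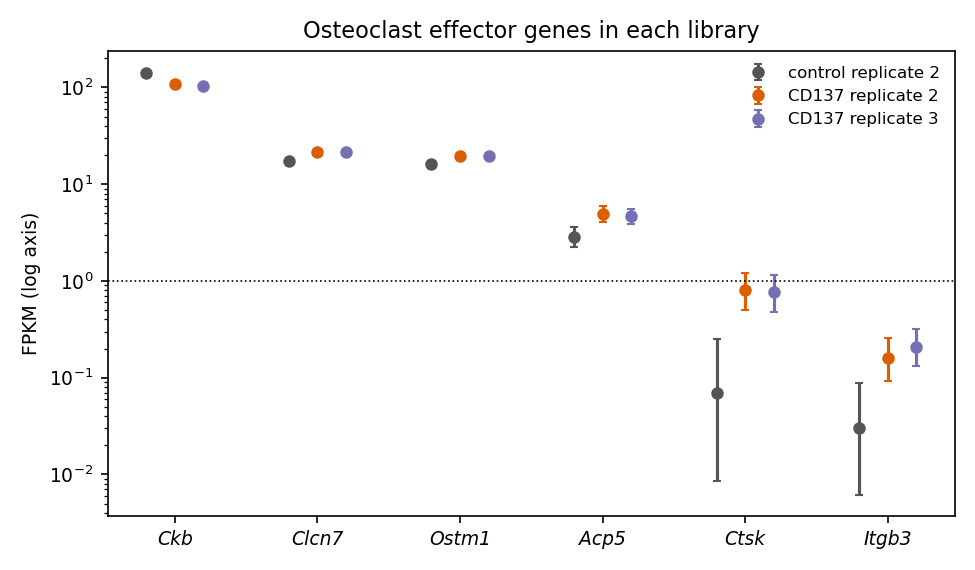
FPKM on a log axis for the 6 members with a value, in which each point is 1 library (grey, control replicate 2; orange and purple, CD137 replicates 2 and 3), with exact Poisson 95% intervals of the recovered reads as bars and 1 FPKM as a dotted line. Ckb lies above 100 FPKM and is lower in both CD137 libraries, whereas the other 5 genes are higher in both, Ctsk and Itgb3 from below 0.1 FPKM.

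Ctsk encodes cathepsin K, the cysteine protease that cuts the collagen of bone. The mm10 position of the gene (gene ID 13038) is chromosome 3, 95499210 to 95509387, plus strand. Its FPKM was 0.07 (control), 0.80 (CD137 replicate 2) and 0.77 (CD137 replicate 3). Both CD137 libraries were far above the control and close to each other. The whole reads behind these values, solved from the authors' deposited p-values, were 2, 22 and 22. Scaled to depth, both CD137 libraries together stood at 11.2 times the control, with an exact binomial 95% interval of 2.91 to 95.1 that covers counting error only. The lower bound is set by the 2 control reads. On the log2(FPKM + 1) scale, which understates changes of low genes, the difference was 0.74. Pairs of libraries were also compared by a Poisson test whose adjusted values, in the authors' deposited table, were 7.45e-05 (control against CD137 replicate 2) and 7.70e-05 (against replicate 3). That test sets 2 libraries side by side and says nothing of the spread within a condition. It called 40.2% of the genes with such a value in either pair. Of 3828 genes that stayed under 1 FPKM in every library and above 0 in the control, 3.37% had a CD137 mean at least 5-fold above it. This fold was set with the values of Ctsk and Itgb3 in view.

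The level of Ctsk stayed small beside that of a family member next to it in the genome. Ctss, which encodes cathepsin S of macrophages and lies 17399 bases further along chromosome 3, had an FPKM of 248 (control), 245 and 235 (CD137), and did not pass (limma adjusted p = 0.367). Per unit length Ctss was 3548 times Ctsk in the control and 306 and 305 times Ctsk in the CD137 libraries. On the other side, 1970 bases before Ctsk, Arnt rose from 25.7 to 30.3 ± 0.05 FPKM (SD, n = 2). No stretch of 50 bases of the Ctsk transcript was shared with another gene of the GENCODE annotation, and no annotated gene overlapped it.

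The promoter of Ctsk is shown because Ctsk, with Itgb3, was near silent in the control; the counting intervals of their ratios overlap, so neither ranks above the other. The window, from RefSeq on GRCm38.p6 (the assembly of mm10), runs from 250 bases before the annotated start to 50 after it, on the plus strand at chr3:95498960-95499259. The GENCODE transcript that is linked to RefSeq begins a little downstream, at 95499256. Capitals mark matches to the motifs searched on both strands: GAGGAA (PU.1), TGANTCA (AP-1), CACGTG and CATGTG (E-boxes bound by MITF and its relatives), TATAAA, and the NF-kB consensus.
Ctsk: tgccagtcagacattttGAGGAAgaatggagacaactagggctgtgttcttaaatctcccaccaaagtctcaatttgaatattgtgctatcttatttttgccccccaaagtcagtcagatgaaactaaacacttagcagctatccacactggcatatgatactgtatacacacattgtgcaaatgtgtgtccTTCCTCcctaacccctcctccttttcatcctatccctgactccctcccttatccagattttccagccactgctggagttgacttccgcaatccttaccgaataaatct
Of the motifs in capitals, GAGGAA alone was found there, at 2 places that begin at positions -233 and -58 from the start, the latter on the opposite strand (TTCCTC); 28.3% of 32851 RefSeq promoter windows of this length hold this motif. The NFAT core GGAAA, which overlaps no marked match in this window and is not capitalised, occurred at 1 place, and 61.3% of all windows hold it. A match is a description of letters, not evidence of binding.

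Acp5 encodes TRAP, the acid phosphatase whose activity stains osteoclasts and which is also present in activated macrophages. The mm10 position of the gene (gene ID 11433) is chromosome 9, 22126727 to 22135746, minus strand. Its FPKM was 2.86 (control), 4.95 (CD137 replicate 2) and 4.66 (CD137 replicate 3). The CD137 libraries lay together above the control, and the 95% counting intervals of control and CD137 did not overlap (2.23 to 3.61 FPKM in the control against 4.10 to 5.93 and 3.84 to 5.61 FPKM). Acp5 rose by a log2 fold change of 0.59 ± 0.09 (SE; limma adjusted p = 0.00719), from 2.86 to 4.81 ± 0.21 FPKM (SD, n = 2), a 1.68-fold difference. Its change was above that of 94.9% of expressed genes, while its control level was above that of only 12.3% of them. The reads behind it were 70, 118 and 112, and the read ratio of CD137 to control was 1.67, with a counting interval of 1.27 to 2.21. Per unit length, Acp5 was 40.9 times Ctsk in the control and 6.19 and 6.05 times Ctsk in the CD137 libraries.

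Acp5 has several first exons, and the reads bear on which transcripts were counted. The number of reads per FPKM depends on transcript length, and for Acp5 it implied a mean transcript of about 1381 bases, against 2640 bases for the longest transcript in the table. The 3 protein-coding GENCODE transcripts of Acp5 with a RefSeq match are 1349, 1356 and 1376 bases long, so these values do not separate the starts. The reads per FPKM, at the control's depth, were 24.5, 24.3 and 24.3 in the 3 libraries. A GENCODE transcript of the opposite strand, 6530413G14Rik, overlaps the gene, and the strandedness of the libraries is not given in the sources used here, so reads of the gene and of this partner cannot be told apart. The window of the innermost start, at chr9:22130549-22130848 on the minus strand, is shown because it is the only one of the 3 RefSeq windows of Acp5 with a marked match.
Acp5: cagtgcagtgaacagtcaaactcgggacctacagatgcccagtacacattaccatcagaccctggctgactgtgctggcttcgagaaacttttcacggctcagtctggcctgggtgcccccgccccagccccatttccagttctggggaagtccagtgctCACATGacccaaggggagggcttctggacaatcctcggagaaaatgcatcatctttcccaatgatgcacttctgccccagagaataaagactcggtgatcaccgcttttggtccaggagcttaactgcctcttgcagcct
The match is CATGTG on the opposite strand, which reads CACATG here, at position -90 from the start. It occurs in 14.2% of all windows. GGAAA was present once in each of the outer windows and at 2 places in this one.

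Clcn7 and Ostm1 encode the partners of one transporter. Clcn7 is the chloride/proton exchanger of late endosomes and lysosomes that supplies chloride to the acid space under the osteoclast. Ostm1 is its accessory subunit, without which the exchanger is unstable, and loss of either gene causes osteopetrosis. Clcn7 (gene ID 26373; chromosome 17, 25133391 to 25162103, plus strand, mm10) had an FPKM of 17.5 (control), 21.3 (CD137 replicate 2) and 21.4 (CD137 replicate 3). Ostm1 (gene ID 14628; chromosome 10, 42678916 to 42702462, plus strand) had values of 16.0, 19.4 and 19.6 FPKM in the same libraries, in the same order. For both genes the CD137 libraries lay above the control and nearly on top of each other.

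Both partners rose, and by nearly the same factor. Clcn7 rose by a log2 fold change of 0.27 ± 0.05 (SE; limma adjusted p = 0.0135), to 21.4 ± 0.11 FPKM (SD, n = 2), or 1.22-fold. Ostm1 rose by 0.27 ± 0.05 (SE; limma adjusted p = 0.0157), to 19.5 ± 0.13 FPKM (SD, n = 2), or 1.21-fold. In reads, Clcn7 had 1279, 1532 and 1551, with a ratio of CD137 to control of 1.22 and a counting interval of 1.15 to 1.31. Ostm1 had 866, 1029 and 1044, with a ratio of 1.21 and an interval of 1.12 to 1.32. The quotient of their levels, Clcn7 over Ostm1, was 1.09 in the control and 1.10 and 1.10 in the CD137 libraries. Over the expressed genes the log2 fold change had a median size of 0.19 regardless of sign, and 79.9% of expressed genes had a lower log2 fold change than Clcn7, and 79.1% a lower one than Ostm1. These 2 genes lie on different chromosomes, and the genes with a value on either side of Ostm1 went in opposite directions, Snx3 falling to 0.886 of the control and Sec63 rising 1.15-fold. The reads implied transcripts of 4067 bases for Clcn7 and 3011 bases for Ostm1, beside longest transcripts of 4070 and 3009 bases. An antisense transcript, Gm15200, overlaps Ostm1.

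The 2 promoters are printed together because the genes changed alike and their upstream windows differ. Both are on the plus strand of GRCm38.p6, Clcn7 at chr17:25133141-25133440 and Ostm1 at chr10:42678666-42678965, with the same motifs in capitals.
Clcn7: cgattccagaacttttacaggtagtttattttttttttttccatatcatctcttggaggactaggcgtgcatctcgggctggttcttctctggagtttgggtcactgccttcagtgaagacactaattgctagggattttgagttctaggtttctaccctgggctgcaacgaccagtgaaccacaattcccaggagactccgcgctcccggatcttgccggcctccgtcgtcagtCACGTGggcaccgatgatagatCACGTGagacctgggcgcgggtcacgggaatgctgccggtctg
Ostm1: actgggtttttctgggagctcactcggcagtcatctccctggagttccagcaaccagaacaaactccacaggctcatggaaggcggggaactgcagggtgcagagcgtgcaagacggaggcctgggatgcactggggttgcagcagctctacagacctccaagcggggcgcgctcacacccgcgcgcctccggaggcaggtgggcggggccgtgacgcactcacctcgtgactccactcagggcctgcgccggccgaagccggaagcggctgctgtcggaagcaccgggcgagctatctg
The Clcn7 window holds CACGTG at 2 places, at positions -15 and 7 from the start. This E-box is the core of the element through which TFEB, TFE3 and MITF drive lysosomal genes, and 7.2% of all windows hold it at least once. GGAAA was found at 1 place in the Clcn7 window, at position -213 on the opposite strand. None of the motifs searched, GGAAA included, was found in the Ostm1 window, which says only that these letters are not in it. An inner start of Clcn7 has a window with CATGTG at 1 place, at position -41 from that start. Of the factors that bind the E-box, Mitf fell from 15.1 to 11.96 ± 0.25 FPKM (SD, n = 2; limma adjusted p = 0.0140) and Tfeb from 13.5 to 11.2 ± 0.02 FPKM (adjusted p = 0.0257). Tfe3, with 34.9 FPKM in control cells and 30.8 ± 1.07 FPKM in CD137 cells, did not pass (adjusted p = 0.0505).

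Itgb3 encodes the β3 chain of the vitronectin receptor, which with the αv chain anchors the osteoclast to bone and signals to its actin ring. The mm10 position of the gene (gene ID 16416) is chromosome 11, 104608000 to 104670476, plus strand. Its FPKM was 0.03 (control), 0.16 (CD137 replicate 2) and 0.21 (CD137 replicate 3). Both CD137 libraries lay above the control, at the lowest level of the 6 measured members. The reads were 3, 16 and 22. Both CD137 libraries together stood at 6.43 times the control, with a counting interval of 2.04 to 32.5. The log2(FPKM + 1) difference was 0.20. Its Poisson adjusted values in the authors' deposited table were 0.00724 (control against CD137 replicate 2) and 0.000319 (against replicate 3). Its partner chain, Itgav, had an FPKM of 11.2 (control), 11.4 and 10.8 (CD137) and did not pass (limma adjusted p = 0.852). Per unit length the αv transcript was 374 times the β3 transcript in the control, and 71.1 and 51.5 times in the CD137 libraries. Itgb3 has no promoter printed here.

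Calcr encodes the calcitonin receptor, through which calcitonin stops bone resorption, and it appears late in osteoclast differentiation. The gene (gene ID 12311; chromosome 6, 3685720 to 3764732, minus strand, mm10) had no value in any of the 3 libraries. The table gives no value for 5987 genes, and no gene in it is listed at 0 in all 3 libraries. Values as low as 0, 0 and 0.01 FPKM are listed (Prdm1), and what a missing value stands for was not tested. No group can be set above another for this gene. Calcrl, which encodes a related receptor for calcitonin gene-related peptide and adrenomedullin, fell from 9.90 to 7.30 ± 0.04 FPKM (limma adjusted p = 0.01).

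Ckb encodes the brain-type cytosolic creatine kinase, which regenerates ATP from phosphocreatine and is made in large amounts by osteoclasts. The mm10 position of the gene (gene ID 12709) is chromosome 12, 111669355 to 111672338, minus strand. Its FPKM was 140 (control), 108 (CD137 replicate 2) and 102 (CD137 replicate 3). Ckb is the one measured member that was lower in both CD137 libraries. It fell by 0.41 ± 0.05 (SE) on the log2 scale (limma adjusted p = 0.00317), to 105 ± 3.62 FPKM (SD, n = 2), which is 0.749 of the control. Only 7.0% of expressed genes had a log2 fold change as low or lower, and its control level was above that of 95.5% of them. The reads were 3672, 2769 and 2651, so the ratio of CD137 to control, 0.749, has a narrow counting interval of 0.718 to 0.781. Between the CD137 libraries the ratio of replicate 3 to replicate 2 was 0.953, with an interval of 0.903 to 1.005. In GENCODE transcripts, 312 of 3125 stretches of 50 bases of Ckb are shared with the copies Ckb-ps1, Ckb-ps2 and Gm12892, which have no value in the table used here, and the part of reads they may take was not tested. The stretches come from all Ckb transcripts pooled, including a retained-intron one of 2839 bases. The share within the protein-coding transcript alone, of 1472 bases, was not computed and may be larger.

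The promoter of Ckb, shown as that of the member that fell, lies at chr12:111672289-111672588 on the minus strand of GRCm38.p6.
Ckb: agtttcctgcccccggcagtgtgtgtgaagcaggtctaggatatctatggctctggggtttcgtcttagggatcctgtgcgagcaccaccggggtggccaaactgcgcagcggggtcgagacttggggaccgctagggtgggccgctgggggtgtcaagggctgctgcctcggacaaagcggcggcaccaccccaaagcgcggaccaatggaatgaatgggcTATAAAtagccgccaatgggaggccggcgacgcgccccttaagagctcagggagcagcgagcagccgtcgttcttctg
The capitals are a TATAAA at position -28 from the start, a motif found in 13.6% of all windows. No E-box, AP-1, NF-kB or PU.1 match was present, and GGAAA was found at 1 place.

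**Figure D2:**
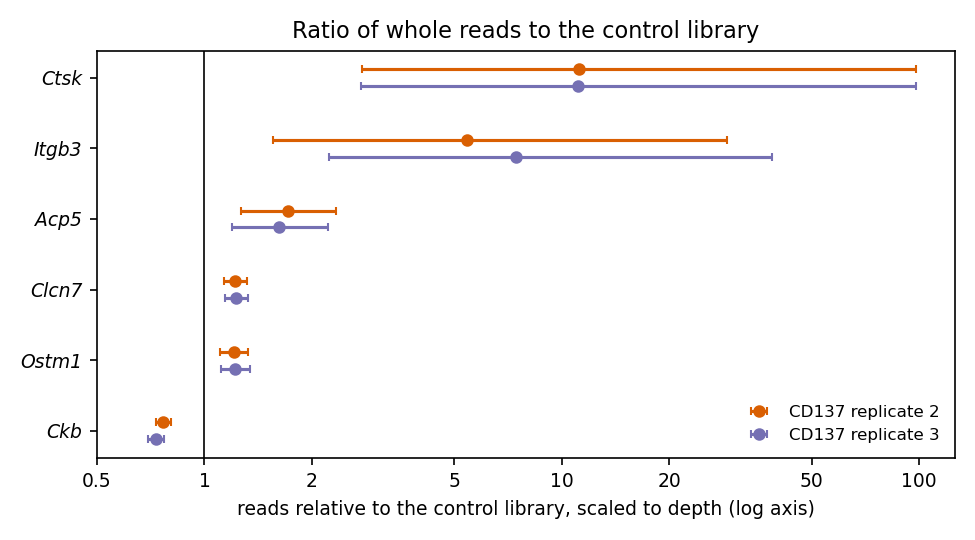
Whole reads in each CD137 library divided by those of the control, scaled to depth, on a log axis, with exact binomial 95% intervals for counting error. The intervals of Ctsk (2.75 to 98.2 in replicate 2) and Itgb3 are wide because the control holds 2 and 3 reads, those of Clcn7, Ostm1 and Ckb are narrow, and no interval reaches 1.

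Between the CD137 libraries the members differed little. The ratio of replicate 3 to replicate 2 in reads was 0.995 for Ctsk (0.525 to 1.88), 0.944 for Acp5 (0.723 to 1.23), 1.01 for Clcn7 (0.938 to 1.08), 1.01 for Ostm1 (0.925 to 1.10) and 1.37 for Itgb3 (0.686 to 2.79). In the authors' deposited table the smallest unadjusted Poisson p among the 6 for this pair was 0.0731, for Ckb. Against the control, the read ratios in replicates 2 and 3 were 11.2 and 11.1 for Ctsk and 1.72 and 1.62 for Acp5. Those of Itgb3 were 5.43 and 7.42, and those of Ckb 0.767 and 0.731. Clcn7 stood at 1.22 and 1.23, and Ostm1 at 1.21 and 1.22. Epithelial markers stood apart in replicate 2, and their part in these ratios was not tested. Macrophage markers moved in both directions between the groups, and their part in the members' differences was not tested.

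**Figure D3:**
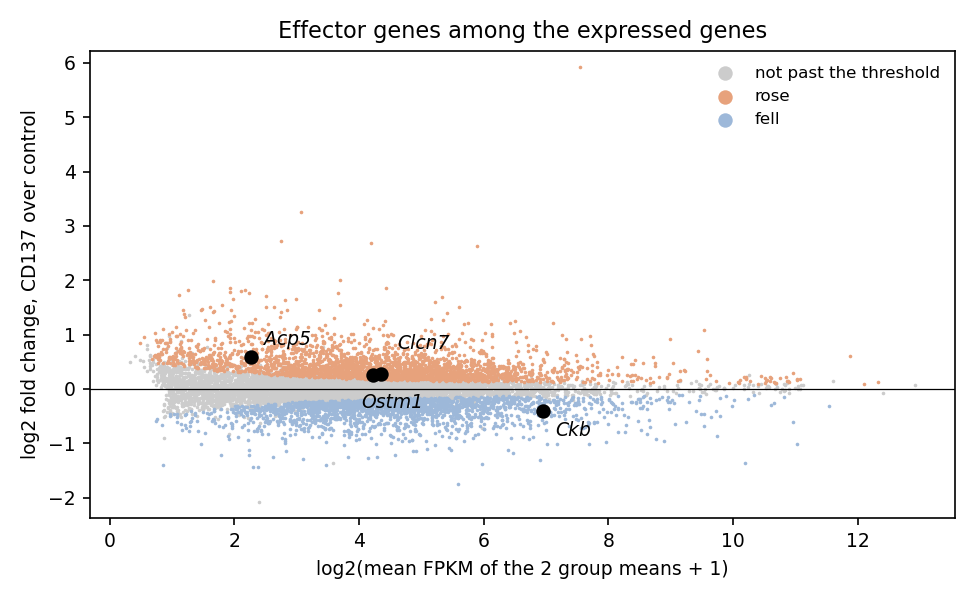
Log2 fold change of CD137 over control against the mean level, both from FPKM with 1 added, for the 10720 expressed genes, coloured by the limma call (orange, rose; blue, fell; grey, not past the threshold), with the 4 members in the fit in black. Acp5 lies at 0.59 among weakly expressed genes, Clcn7 and Ostm1 lie side by side at 0.27, and Ckb at -0.41 among the abundant ones.

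The gene with the pattern most like each expressed member was found by the distance in log2(FPKM + 1) over the 3 libraries, which share their depth and scaling. Slc9a3r2 was nearest to Acp5 (distance 0.08; 3.0, 5.21 and 4.62 FPKM in the control and CD137 replicates 2 and 3). Rp2 was nearest to Clcn7 (0.02), Mapkapk5 to Ostm1 (0.03) and Cbx3 to Ckb (0.06). With 3 libraries such a match describes levels only.

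Genes that work beside each effector were read from 7 lists, whose median log2 fold changes stand beside 0.03 for all 10720 expressed genes. Their counts stand beside 24.4% of expressed genes that rose and 18.2% that fell (2310 and 2568 of 10720 genes with size factors). A list gene that passed the expression limit only through the group where it is high had to differ; 3 risers were of this kind, Mmp9, Ckm and Esr1. Around TRAP and cathepsin K, the matrix and phosphate list holds enzymes, inhibitors and the phosphate transporter Slc20a1. Of its 16 expressed genes, 6 rose (37.5%) and 2 fell (12.5%), with a median of 0.06. With size factors in place of FPKM scaling alone, 5 rose and 4 fell. The gelatinase Mmp9 rose 7.64-fold, from 0.65 to 4.97 ± 0.25 FPKM, having passed the expression limit only through the CD137 libraries, and the cathepsin inhibitor Cstb 1.46-fold and Ctsl 1.35-fold. Ctsh fell to 0.690 of the control. Pgk1, the most abundant of this list, did not pass, with 1957 FPKM in control cells and 1858 ± 33.6 FPKM in CD137 cells. Ctsb and Lgmn also did not pass (1.01-fold each), and Mmp14 and Mmp12 were under 1 FPKM.

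Around Clcn7 and Ostm1, the acid secretion list had 12 of 18 expressed members higher (66.7%, against 24.4% of expressed genes) and 1 lower (5.6%, against 18.2%; median 0.28). Atp6v0d2, a pump subunit enriched in osteoclasts, rose 2.52-fold, and the subunits Atp6v1g1, Atp6v1d and Atp6v0c rose 1.40-, 1.39- and 1.34-fold. Tcirg1, the pump subunit of the ruffled border, did not pass, with 61.5 FPKM in control cells and 66.7 ± 0.56 FPKM in CD137 cells (adjusted p = 0.0781). Car2, the carbonic anhydrase that makes the protons, fell to 0.789 of the control. Among genes of chloride/proton exchange and ruffled border trafficking, 8 of 22 expressed members rose (36.4%) and 3 fell (13.6%, near the 18.2% of expressed genes; median 0.14). None of the sister exchangers Clcn3, Clcn4, Clcn5 and Clcn6 passed, with folds of 1.10, 0.926, 1.15 and 0.869. Snx10, a sorting nexin whose loss causes osteopetrosis, rose 1.301-fold, Igf2r 1.43-fold, Gnptg 1.35-fold and the membrane proteins Lamp2 and Lamp1 1.34- and 1.17-fold. Syt7, a vesicle fusion sensor, had listed values of 0, 0.01 and 0.02 FPKM.

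Around Itgb3, the list of sealing zone and integrin signalling genes had 3 of 21 expressed members higher (14.3%, against 24.4% of expressed genes) and 8 lower (38.1%, against 18.2%; median -0.02). The β5 chain Itgb5, another partner of αv, rose 1.43-fold and the exchange factor Vav1 1.33-fold. The kinase Ptk2b fell to 0.690, the actin-severing Gsn to 0.677 and the adaptor Tyrobp to 0.869 of the control. Src, the kinase that β3 signalling uses in osteoclasts, had 0.03, 0.35 and 0.22 FPKM in the control and CD137 replicates 2 and 3, under the expression limit like Itgb3 itself.

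Around Ckb, 3 of 8 expressed genes of creatine and energy supply rose (37.5%, against 24.4% of expressed genes) and 2 fell (25.0%, against 18.2%; median 0.09). With a filter on the group means, which drops Ckm, 2 of 7 rose. The creatine importer Slc6a8 rose 1.504-fold, to 16.5 ± 0.52 FPKM, whereas the enzymes of creatine synthesis, Gatm and Gamt, fell to 0.681 and 0.616 of the control. The muscle-type kinase Ckm rose from 0.36 to 1.14 ± 0.12 FPKM, far below Ckb. Ckm passed the expression limit only through the group where it is high. In the calcitonin receptor family list, 4 of 10 genes were expressed, of which 3 rose (75.0%) and 1 fell (25.0%; median 0.36), too few to read against 42.6% of expressed genes that passed either way; the risers were Crcp (1.42-fold) and the G protein subunits Gnas (to 215 FPKM) and Gnaq (1.27-fold), which serve many receptors. Ramp1 had listed values of 0, 0.22 and 0.08 FPKM, and Ramp3 had no value.

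The regulators that act on these effectors moved in both directions. Of 24 expressed regulators 10 rose (41.7%, against 24.4% of expressed genes) and 6 fell (25.0%, against 18.2%; median 0.08), and 8 rose and 8 fell with size factors. The 10 include Esr1, the estrogen receptor, with 0.71, 1.37 and 1.28 FPKM. Fos rose 3.29-fold, Nfkb2 2.47-fold, Relb 2.25-fold and Id2, an inhibitor of osteoclast formation, 1.68-fold. Nfatc1, the factor best known for switching on Ctsk, Acp5, Itgb3 and Calcr, fell from 28.4 to 19.2 ± 0.32 FPKM (limma adjusted p = 0.00227). Its part in the members' differences was not tested. Csf1r, the M-CSF receptor, fell to 0.771 of the control, and the repressors Bcl6 and Irf8 fell to 0.619 and 0.799. Tnfrsf11a, which encodes RANK, had 20.3 FPKM in control cells against 17.9 ± 0.28 FPKM in CD137 cells (adjusted p = 0.0602), and Spi1, which encodes PU.1, 97.2 against 105 ± 2.67 FPKM (adjusted p = 0.102); neither passed. Of the 5 osteoclast markers outside the set, Atp6v0d2, Mmp9 and Dcstamp rose, Mmp9 from a control level under the expression limit. Oscar had listed values of 0, 0.12 and 0.12 FPKM and the fusion gene Ocstamp 0.46, 0.06 and 0.26 FPKM, in the order control, CD137 replicate 2, CD137 replicate 3.

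**Figure D4:**
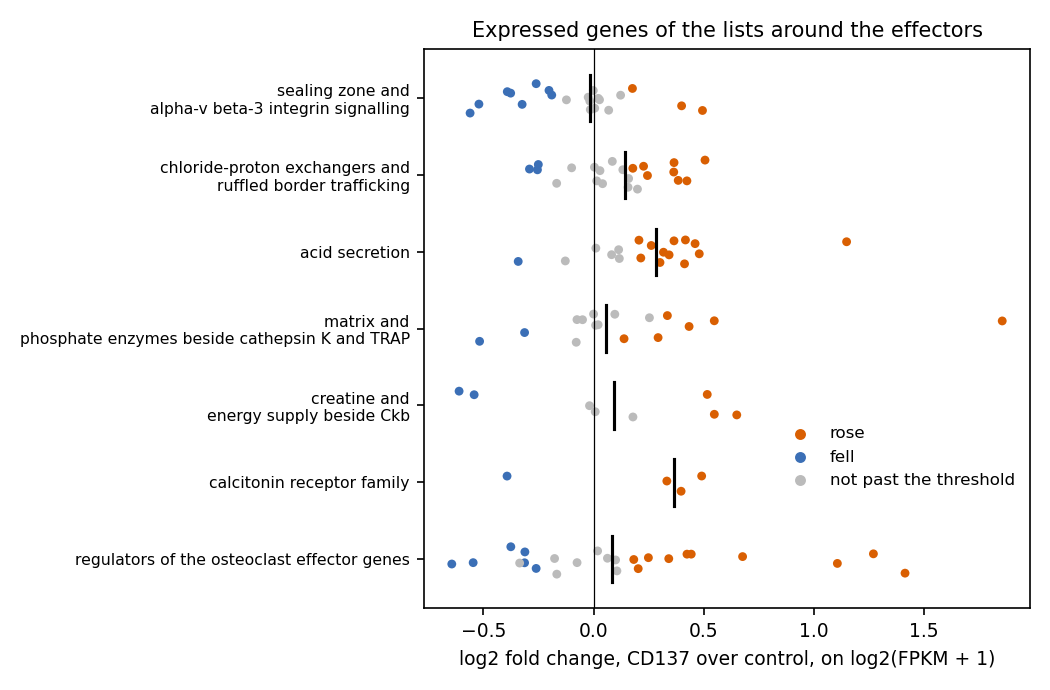
Log2 fold change, CD137 over control on log2(FPKM + 1), of every expressed gene of the 7 lists, 1 point per gene, coloured by the limma call, with the list's median as a black bar. The acid secretion list lies mostly to the right (12 of 18 rose), while the sealing zone and regulator lists hold genes on both sides.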

How the data were processed

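Polyadenylated RNA of RAW264.7 cells was sequenced (oligo-dT bead selection, per the labels' protocols). Groups and replicate numbers came from the sample titles. Levels are FPKM values as the authors deposited them, 1 for each gene in each library. The submitters' processing notes list HISAT2, Bowtie2, RSEM and mm10 but give no version or order. The deposited log2 ratios compare pairs of libraries, per the file headers. The p-values beside them come from a Poisson test of 2 libraries, per the file headers, and the deposited adjusted values, some above 1, were treated as a score. In the file, 1 broken-off line was left out, and 16003 of 21990 genes had a value.

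The planned test was a moderated fit of log2(FPKM + 1) with a trend of variance on level (limma 3.58.1, R 4.3.3), over genes with 1 FPKM or more in some library, with Benjamini-Hochberg adjustment. The fit has 1 residual degree of freedom. It was also run on simulated data, as was the recovery of reads, with outcomes that are not reported here. Whole reads were solved as the 1 set of whole numbers that gives all 3 deposited p-values of a gene. That set was unique for all 6 members with a value. The form of the Poisson test was assumed. The depths of CD137 replicates 2 and 3, 0.983 and 0.988 times the control's, were found from 142 and 149 other genes. The read totals were estimated from 241, 231 and 229 single-transcript genes. Intervals are exact Poisson and exact binomial (Clopper-Pearson) at 95%, computed with scipy 1.17.1, and cover counting error only.

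The members and lists were chosen with earlier results of these data known. Named genes were the members, Tnfrsf9, the nearest gene to each expressed member, and from each list up to 4 members past the threshold with the largest change and the most abundant one; other genes named were chosen after their values were seen. Motifs were also searched after the values were seen. The 2 samples numbered replicate 1 are not analysed here. Alternatives were 2 other pseudocounts, 2 other filters, size factors, no trend, leaving out each CD137 library, and recovered reads.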

Additional observations from a re-analysis of the deposited data

How the results depend on the processing

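The calls of the 4 expressed members depended on which genes were fitted. With all 16003 genes in the fit, 0 genes, 0 members and 0 genes of each of the 7 lists passed. The limma adjusted p-values of the 4 expressed members there were 0.0901 for Acp5, 0.0817 for Clcn7, 0.0831 for Ostm1 and 0.0886 for Ckb. Ctsk and Itgb3, under the expression limit, were also in that fit, with adjusted p-values of 0.0802 and 0.135. The smallest of any gene was also 0.0802. In the 6 other fits (pseudocounts of 0.1 and 0.5, a filter on the group means, size factors, no trend, and the fit reported) all 4 members passed, with adjusted p from 0.00369 to 0.0141 for Acp5, 0.0129 to 0.0320 for Clcn7, 0.0152 to 0.0341 for Ostm1 and 0.00038 to 0.0212 for Ckb. Median-of-ratios size factors changed the split of calls from 2614 higher and 1949 lower to 2310 and 2568, without changing a member's direction. The pseudocount set the size of the low members: the log2 difference of Ctsk was 0.74 with 1, 2.38 with 0.1 and 3.48 in recovered reads, and that of Itgb3 0.20, 1.13 and 2.68. Leaving out CD137 replicate 2 or 3 leaves 1 library against 1, with no test; the log2 differences were then 0.73 and 0.75 for Ctsk, 0.55 and 0.62 for Acp5, 0.23 and 0.17 for Itgb3 and -0.45 and -0.38 for Ckb. No paired analysis was possible because the groups share only 1 replicate number in the table. Depth limits Ctsk and Itgb3, whose control values rest on 2 and 3 reads. Why Calcr had no value was not tested.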

Other observations

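The expressed genes on either side of the effectors, chosen after their values were seen, went in several directions. Beside Acp5, Pigyl, 21100 bases away, rose from 12.7 to 19.6 ± 0.95 FPKM (SD, n = 2; limma adjusted p = 0.00317), a 1.55-fold difference beside 1.68-fold for Acp5, while Elof1, 9523 bases away on the other side, did not pass (0.927 of the control). Beside Ckb, Trmt61a, 5767 bases away, fell to 0.806 of the control (adjusted p = 0.0223), and Mark3, 13128 bases away, did not pass (1.016-fold). Beside Calcr, which had no value, Vps50, 82189 bases away, fell to 0.883 of the control (adjusted p = 0.0458), and Gngt1 was under 1 FPKM. The genes with a value on both sides of Clcn7, Ptx4 and Gm38655, were under 1 FPKM, as was Myl4 beside Itgb3. Distances are between gene ends as given in the expression table.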
